A study of Bos taurus with 14 samples.

Results

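The liver X receptors and the genes of sterol handling that they control were followed in *M. longissimus dorsi* (LD) muscle, the long muscle of the back, of beef heifers kept at pasture or indoors. The 8 genes are *NR1H2* and *NR1H3*, which encode the receptors, and *ABCA1*, *ABCG1*, *APOE*, *MYLIP*, *LPCAT3* and *SREBF1*, which are among their classical targets. A probe set, a group of short oligonucleotides that reads 1 transcript, was taken as a member when the array annotation gave it the symbol of 1 of these genes and no other, whatever its values. This found 12 probe sets of 6 genes. The annotation holds no symbol for the *ABCA1* probe set, which is named here from the study's own pairing of probe set and gene, and no probe set is named *ABCG1*, so that *ABCG1* was not analysed here. In all, 13 probe sets of 7 of the 8 genes were followed, among the 24016 bovine probe sets of the array. *ABCA1* was among the genes that the study picked on these same arrays, so that its difference here is no independent evidence. The study also measured *ABCA1* by quantitative PCR in a larger set of animals, which included those on the arrays and is not used here.

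The study asked which muscle transcripts set outdoor/pasture-fed cattle apart from indoor/concentrate-fed cattle. Charolais × Limousin crossbred heifers were allotted at random to the systems for the year before slaughter. The outdoor/pasture-fed heifers grazed grass and clover swards. The others never went out, and their ration combined straw of barley with a concentrate based on beet pulp and rolled barley. Muscle was taken shortly after death, and 7 animals of each system were hybridised to Affymetrix GeneChip Bovine Genome Arrays, with 1 array per animal. For short, the groups are also called outdoor and indoor below. Feed, housing and exercise went together and cannot be told apart. Within each system the heifers were kept in separate management groups, which the labels do not name, and all tests took the animals as independent. The labels give no age.

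Liver X receptors are nuclear receptors that bind oxysterols, the oxidised forms of cholesterol that build up when a cell holds an excess of it. Paired with a retinoid X receptor on DNA, they hold their targets down without a ligand and turn them on with one, so that sterol leaves the cell, sterol uptake slows and membrane phospholipids are rebuilt. In skeletal muscle the same receptors are known for their part in sterol export and in the storage of fat.

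The values were the deposited log2 expression values, and each difference subtracts the indoor/concentrate-fed mean from the outdoor/pasture-fed mean, which is the opposite of the sign used in the study. The median log2 value of an array lay between 6.77 and 6.84, and any 2 arrays correlated at 0.985 to 0.997 over all probe sets. The labels name no batch. Of 10 skeletal muscle markers, 7 had a probe set by name, among them the actin *ACTA1*, the creatine kinase *CKM* and the myosins *MYH1* and *MYH7*, and their mean lay between 13.65 and 13.74 on every array, far above the array medians. The summarisation used by the authors leaves many probe sets nearly constant, and 40.1% of all probe sets, 9623 of them, had a standard deviation above 0.01 over the 14 arrays and are called varying here. Of the member probe sets, 8 varied, from 5 genes, and 5 hardly varied.

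*ABCA1* was the member whose reading differed most between the production systems. Its probe set read 2.17-fold higher in muscle from the outdoor/pasture-fed heifers, and no animal of either group lay within the range of the other. Both *LPCAT3* probe sets and 1 *MYLIP* probe set were higher by smaller amounts, the receptor *NR1H2* was lower, and *SREBF1* showed no difference beyond the spread between animals. In limma, none of the 13 member probe sets passed an adjusted p of 0.05 over all probe sets, where 0.0167% of all probe sets did. At an unadjusted p under 0.05, 5 of the 13 (38.5%) differed, 4 higher and 1 lower at pasture, against 11.4% of all probe sets, of which 5.35% were higher and 6.07% lower. Among the 8 varying member probe sets the same 5 stood against 19.6% of all varying probe sets (9.21% higher and 10.4% lower), and none of the 8 passed the adjusted p that 0.343% of varying probe sets passed. The 5 include *ABCA1*, picked by the study on these same arrays, and count *LPCAT3* by 2 probe sets. The members were also chosen with earlier results known, so that the excess is no independent evidence. The median difference was 0.01 over the 13 member probe sets and 0.22 over the 8 that varied, beside a median of -0.01 over all varying probe sets. In muscle tissue read as a whole, fewer cells of a type and less RNA per cell cannot be told apart.

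**Figure D1:**
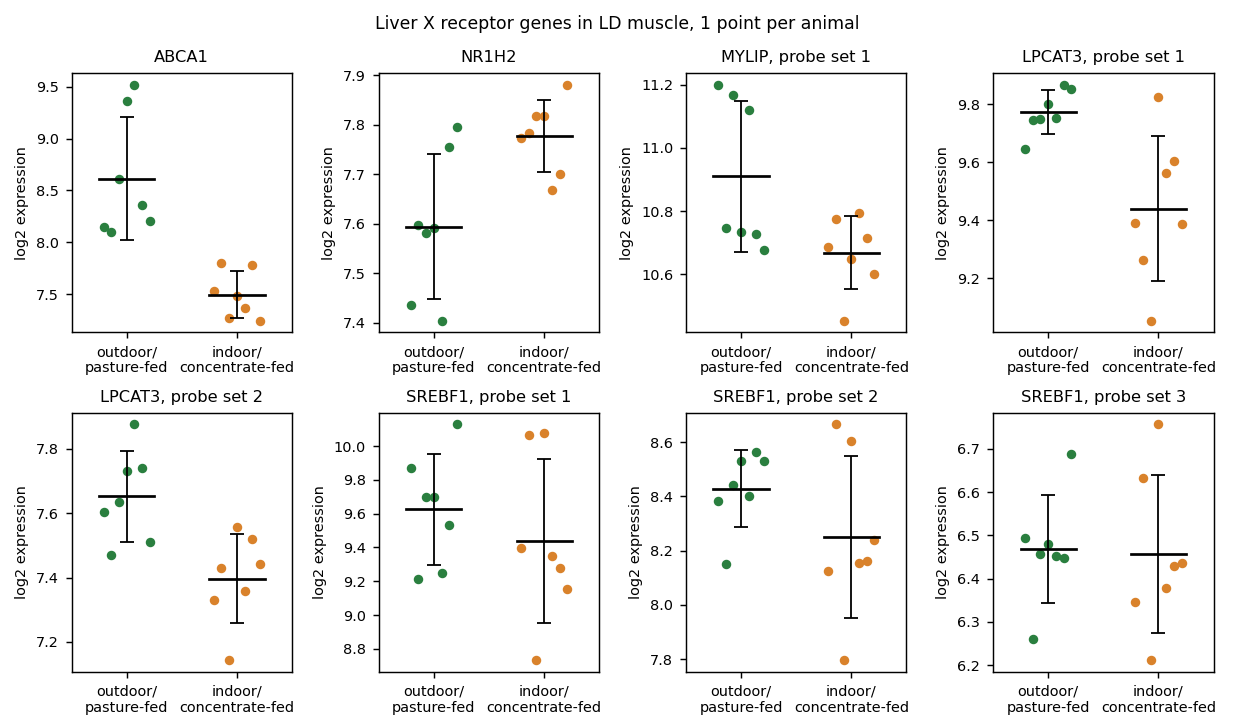
Log2 expression (vertical axes, each panel on its own scale) of the 8 member probe sets that varied, with 1 point per animal for 7 outdoor heifers in green and 7 indoor heifers in orange, under the group mean (bar) and SD (whiskers). The groups are apart for *ABCA1*, where the lowest outdoor animal is at 8.10 and the highest indoor animal at 7.80, and they overlap in every other panel.

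*NR1H2* encodes liver X receptor beta, the form found in nearly all tissues. Its log2 level ran from 7.40 through a median of 7.59 to 7.80 in the outdoor/pasture-fed heifers and from 7.67 through 7.78 to 7.88 in the indoor/concentrate-fed heifers. Outdoor replicates 6 and 7 lay among the indoor animals, and the other 5 lay below all of them. The means were 7.59 ± 0.15 (SD, n = 7) and 7.78 ± 0.07 (SD, n = 7), a difference of -0.18 (SE 0.06, adjusted p = 0.282 from limma, exact permutation p = 0.0122). The receptor transcript thus read lower in the group in which *ABCA1* read higher, by an amount that did not pass over all probe sets.

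*NR1H3* encodes liver X receptor alpha, the form known from liver, fat and macrophages. Both of its probe sets were nearly constant over the arrays, the first at 7.85 and the second at 6.25 on each of them. No member that hardly varied had a standard deviation above 0.000778 or a difference between groups of more than 0.000323. Such values can show neither a difference nor its absence, and the same holds for the acceptor gene *APOE* below.

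*ABCA1* encodes the transporter that loads cholesterol and phospholipid onto lipid-poor apolipoproteins at the cell surface. Its log2 level ran from 8.10 through a median of 8.36 to 9.52 at pasture and from 7.24 through 7.48 to 7.80 on concentrate. Every outdoor animal lay above every indoor animal, a separation seen for 0.371% of all probe sets (0.217% in this direction), and outdoor replicates 4 and 5, at 9.37 and 9.52, lay well above the other 5. The outdoor values spread over 1.42 on the log2 scale and the indoor values over 0.55. The means were 8.61 ± 0.59 (SD, n = 7) and 7.49 ± 0.23 (SD, n = 7), which gave a difference of 1.12 (SE 0.24, 95% interval 0.60 to 1.64, adjusted p = 0.147 from limma). The exact permutation p was 0.000583, the smallest that 7 against 7 arrays can give. By its unadjusted limma p, *ABCA1* ranked 76 of the 24016 probe sets. Among the 9623 varying probe sets its adjusted p from limma was 0.0510, and among those with a standard deviation above 0.1 it was 0.0328, so that its call at 0.05 depends on which probe sets are tested with it. Leaving out 1 array at a time gave differences from 0.97 to 1.21, the lowest without outdoor replicate 5.

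A second probe set, with no symbol in the annotation, carries the same transcript cluster number as the *ABCA1* probe set and was singled out after its values were seen. It was not counted as a member. It read 8.96 ± 0.63 (SD, n = 7) in the outdoor group and 7.85 ± 0.22 (SD, n = 7) in the indoor group and differed by 1.11 (SE 0.25, adjusted p = 0.170 from limma), again with no overlap. Its deviations from the group means followed those of *ABCA1* with r = 0.95 over the 14 arrays, both probe sets being read from the same RNA.

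*APOE* encodes an apolipoprotein that takes up exported sterol. Its only probe set read 6.70 on each array and hardly varied, so that the acceptor side of the export pathway has no usable member value here.

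*MYLIP* encodes the ubiquitin ligase also called IDOL, a feedback target through which the receptors curb sterol uptake. Its varying probe set ran from 10.68 through a median of 10.75 to 11.20 at pasture and from 10.45 through 10.69 to 10.79 on concentrate. Outdoor replicates 1, 3 and 5 lay above all indoor animals, and the other 4 lay within their range. The means were 10.91 ± 0.24 (SD, n = 7) and 10.67 ± 0.12 (SD, n = 7), with a difference of 0.24 (SE 0.10, adjusted p = 0.381 from limma, exact permutation p = 0.0437). Its unadjusted limma p of 0.0311 was above 0.05 without any 1 of outdoor replicates 1, 3 and 5 or indoor replicates 3 and 7 (from 0.0541 to 0.0656), and with the replicate number as a block (0.0601). Of the 3 high animals, replicates 3 and 5 were also among the 3 outdoor animals with the most *ABCA1*, and replicate 1 was not. The second *MYLIP* probe set stayed at 7.17 on all arrays.

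*LPCAT3* encodes the acyltransferase that puts polyunsaturated fatty acids into membrane phospholipids. Its first probe set ran from 9.64 through a median of 9.75 to 9.87 at pasture and from 9.05 through 9.39 to 9.83 on concentrate. All 7 outdoor animals lay above the indoor median, and indoor replicate 4 lay among them. The means of 9.77 ± 0.08 (SD, n = 7) and 9.44 ± 0.25 (SD, n = 7) differed by 0.33 (SE 0.10, adjusted p = 0.247 from limma, exact permutation p = 0.00524). The second probe set ran from 7.47 through 7.64 to 7.88 at pasture and from 7.14 through 7.43 to 7.56 on concentrate. Here 5 of the 7 outdoor animals lay above all indoor animals. The means of 7.65 ± 0.14 (SD, n = 7) and 7.40 ± 0.14 (SD, n = 7) differed by 0.26 (SE 0.07, adjusted p = 0.241 from limma, exact permutation p = 0.00524). Both readings of *LPCAT3* went the same way between the groups, and within groups they followed each other with r = 0.57 over the 14 arrays.

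*SREBF1* encodes a sterol regulatory element binding protein, the transcription factor that drives fatty acid synthesis. Its first probe set ran from 9.21 through a median of 9.70 to 10.13 at pasture and from 8.73 through 9.35 to 10.08 on concentrate. The groups lay over each other, with indoor replicates 2 and 4 above all outdoor animals but replicate 7, and with indoor replicate 3 lowest of all. The differences of the 3 varying probe sets were 0.19 (SE 0.22, 95% interval -0.29 to 0.67), 0.18 (SE 0.12, interval -0.09 to 0.45) and 0.01 (SE 0.08, interval -0.17 to 0.19). Their exact permutation p-values were 0.402, 0.178 and 0.892. The first interval still reaches a difference of 0.67, so that the data do not show equal levels. The 3 probe sets followed each other closely within groups, with r from 0.86 to 0.91 over the 14 arrays, and the last stayed at 6.07.

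**Figure D2:**
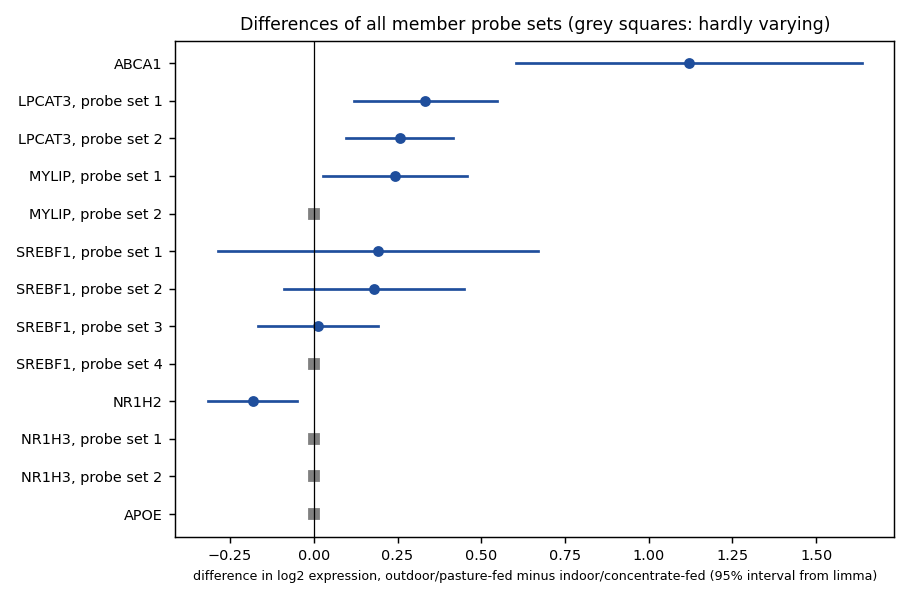
Difference in log2 expression (horizontal axis, outdoor/pasture-fed minus indoor/concentrate-fed) of all 13 member probe sets, with the limma estimate (blue point) and its 95% interval (line), and with the 5 hardly varying probe sets as grey squares at 0. The *ABCA1* interval, from 0.60 to 1.64, lies above those of *LPCAT3*, *MYLIP* and *NR1H2*, and those of the 3 varying *SREBF1* probe sets include 0.

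Whether *ABCA1* moved with the other genes of the pathway was asked in 2 ways, between the groups and among the animals of a group. Between the groups, the *ABCA1* value of each array was set against that of another member on the same array, and the contrast between systems was tested by exact permutation. The pasture contrast of *ABCA1*, as read by its probe set, was larger than those of the other 4 genes that varied, and opposite in sign to that of *NR1H2*. It exceeded that of *NR1H2* by 1.30 (exact permutation p = 0.000583), with all 7 outdoor arrays beyond all indoor arrays. It exceeded the contrast of *MYLIP* by 0.88 (exact permutation p = 0.00175) and that of the first *LPCAT3* probe set by 0.79 (exact permutation p = 0.00408). Against the first *SREBF1* probe set, the excess was 0.93 (exact permutation p = 0.00991). With the second *LPCAT3* probe set it was 0.86, and with the further *SREBF1* probe sets 0.94 and 1.11 (exact permutation p = 0.000583 for each). The tested quantity includes the *ABCA1* contrast itself, for which the study picked the gene, and values near 0 for the other gene would give the same result. Probe sets may also respond unequally. The first and the last varying *SREBF1* probe sets followed each other at r = 0.91 (n = 14) yet differed between groups by 0.19 and 0.01. The excess thus compares readings, and whether the transcripts changed by unlike amounts was not tested.

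Among the animals of a group, the question was whether heifers with more *ABCA1* also had more of a partner. For 6 of the 7 member probe sets compared, no relation had a permutation p under 0.05. Their deviations from the group means correlated with those of *ABCA1* at r from -0.43 (*NR1H2*) to 0.28 (the second *SREBF1* probe set), with a smallest permutation p of 0.192, and Spearman's rho ran from -0.41 to 0.31, with a smallest permutation p of 0.200, each over n = 14. Without outdoor replicates 4 and 5, which lay farthest from the median of *ABCA1*, r ran from -0.21 to 0.40.

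The second *LPCAT3* probe set was the exception. It correlated with *ABCA1* at r = 0.68 (permutation p = 0.00752) and rho = 0.58 (permutation p = 0.0363, n = 14), and at r = 0.55 without outdoor replicates 4 and 5. Within the outdoor animals r was 0.83 (exact permutation p = 0.0212, n = 7) and within the indoor animals 0.50 (exact permutation p = 0.259, n = 7), a difference that was not tested. Of 5939 varying probe sets with a gene name, members left out, 12 (0.202%) had a higher r with *ABCA1*. Fitted over all probe sets with group in the model, its slope on *ABCA1* was 0.21 (SE 0.07, adjusted p = 0.947 from limma). The first *LPCAT3* probe set had r = 0.09 with *ABCA1* (permutation p = 0.622, n = 14), so that the relation rests on 1 of the 2 probe sets of the gene.

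Of 6 pairs among the other members, *NR1H2* and *MYLIP* stood in an inverse relation. Animals with less *NR1H2* than their group had more *MYLIP*, with r = -0.77 (permutation p = 0.00449) and rho = -0.80 (permutation p = 0.00227, n = 14). The correlation was -0.68 without outdoor replicates 5 and 7, and it was -0.79 within the outdoor animals (exact permutation p = 0.0304, n = 7) and -0.65 within the indoor animals (exact permutation p = 0.112, n = 7). Within the outdoor animals the first *LPCAT3* probe set also correlated with *NR1H2* at 0.84 (exact permutation p = 0.0240, n = 7) and with *MYLIP* at -0.78 (exact permutation p = 0.0391, n = 7). Within the indoor animals these were -0.29 and 0.47, and over n = 14 they were 0.09 and -0.0047. In the fit over all probe sets the adjusted p from limma was 0.513 for *NR1H2* with *MYLIP* and 0.986 for *NR1H2* with the first *LPCAT3* probe set. In all, 17 relations were computed, 4 of them with the means of marker lists, and none passed an adjusted p of 0.05 over all probe sets.

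**Figure D3:**
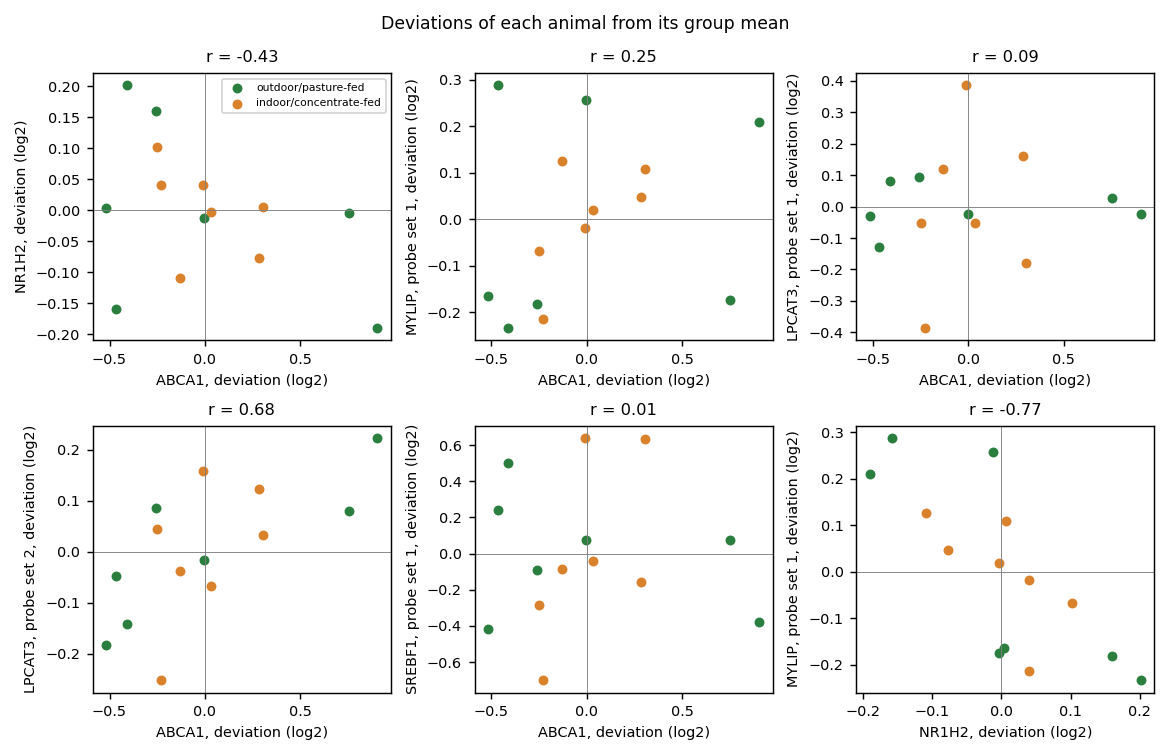
Deviations of each animal from the mean of its group in log2 expression, *ABCA1* (horizontal axis) against another member (vertical axis) in 5 panels and *NR1H2* against *MYLIP* in the last, for 7 outdoor heifers in green and 7 indoor heifers in orange. The panels for the second *LPCAT3* probe set (r = 0.68) and for *NR1H2* with *MYLIP* (r = -0.77) show a slope, and the first *LPCAT3* probe set (r = 0.09) and *SREBF1* (r = 0.01) show none.

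With the members left out, 5939 varying probe sets with a name were ranked over 14 arrays by how closely their deviations followed those of *ABCA1*. The 5 genes most like it were the Fc receptor *FCGR1A* (r = 0.77), the Ras association gene *RASSF3* (r = 0.73), the collagen-binding proteoglycan *LUM* (r = 0.71), the Wnt antagonist *SFRP1* (r = 0.70) and the macrophage checkpoint receptor *SIRPA* (r = 0.70). Their own differences between the systems were unlike each other. *SFRP1* differed by 0.70 (SE 0.25, adjusted p = 0.299 from limma), with 1 animal of each group lying apart (outdoor replicate 5, indoor replicate 1), whereas *LUM* differed by 0.02 (SE 0.27) and *RASSF3* by -0.13 (SE 0.03, adjusted p = 0.172 from limma). *FCGR1A* differed by 0.12 (SE 0.07) and *SIRPA* by -0.16 (SE 0.10).

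Around the members, 8 lists of pathway genes hold 66 genes, of which 50 had a probe set by name. Each was read from its probe set with the highest mean, and 30 varied there. Of these 30, 13 were higher and 17 lower at pasture, and none passed over all probe sets. At an unadjusted p under 0.05, 2 were higher and 7 lower in the fit over all probe sets. In the fit to the varying probe sets alone, 2 of the 30 (6.67%) were higher and 6 (20.0%) lower, against 9.21% and 10.4% of all varying probe sets. Leaving out 1 array moved the count of higher genes to between 0 and 4 and that of lower genes to between 4 and 9. The median difference of the 30 was -0.05, beside -0.01 over all varying probe sets.

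Of 9 partner receptors and coregulators, 5 had a probe set by name. All 4 that varied were lower at pasture, as *NR1H2* was, with a median difference of -0.13, and 2 had an unadjusted p under 0.05. Of all 9623 varying probe sets, 5054 were lower. The 2 were called in the fit over all probe sets, where 6.07% of all probe sets were lower at that threshold. In the fit to varying probe sets alone, 10.4% of those were lower at it. The coactivator *NCOA1* differed by -0.17 (SE 0.06, adjusted p = 0.276 from limma), where outdoor replicate 4 lay far below the rest. *RXRA*, a retinoid X receptor that pairs with the liver X receptors, differed by -0.12 (SE 0.06, adjusted p = 0.428 from limma). Its call was borderline, with an unadjusted limma p of 0.0473 and an exact permutation p of 0.0513. Of 2 varying genes of oxysterol supply and removal, neither had an unadjusted p under 0.05. *CH25H*, which makes an oxysterol ligand, differed by -0.17 (SE 0.18), and the bile acid gene *HSD3B7* hardly varied. No varying gene of these lists was higher at pasture at an unadjusted p under 0.05.

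The other transporters and apolipoproteins had 4 varying genes, 2 higher and 2 lower. *SCARB1*, the receptor that exchanges sterol with high density lipoprotein, differed by -0.27 (SE 0.12, adjusted p = 0.410 from limma). Of 8 varying further targets of the receptors, 4 were higher and 4 lower, with a median difference of -0.01. *LPL*, the lipase that frees fatty acids from lipoproteins, differed by 0.58 (SE 0.26, adjusted p = 0.427 from limma), where indoor replicate 3 lay far below the rest, and the fatty acid elongase *ELOVL6* by -0.31 (SE 0.14, adjusted p = 0.427 from limma). *LPL* and *ELOVL6* were the only ones of the 8 with an unadjusted p under 0.05, so that the signs of the others carry little weight. At this threshold 5.35% of all probe sets were higher and 6.07% lower. In the fit to varying probe sets alone, 9.21% of those were higher and 10.4% lower.

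*SREBF2*, the factor that drives cholesterol synthesis and uptake, differed by -0.15 (SE 0.04, adjusted p = 0.241 from limma). Its processing list, which includes *SREBF2* itself, had 3 varying genes, 1 higher and 2 lower. Of 5 varying genes of sterol storage and lysosomal release, 3 were higher and 2 lower. *NPC1*, which carries sterol out of lysosomes, differed by -0.62 (SE 0.24, adjusted p = 0.349 from limma), and *NCEH1*, a cholesteryl ester hydrolase, by 0.31 (SE 0.13, adjusted p = 0.388 from limma). Of 2 varying relatives of *LPCAT3*, neither had an unadjusted p under 0.05. *LPCAT1* differed by 0.15 (SE 0.12) and *LPCAT2* hardly varied.

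**Figure D4:**
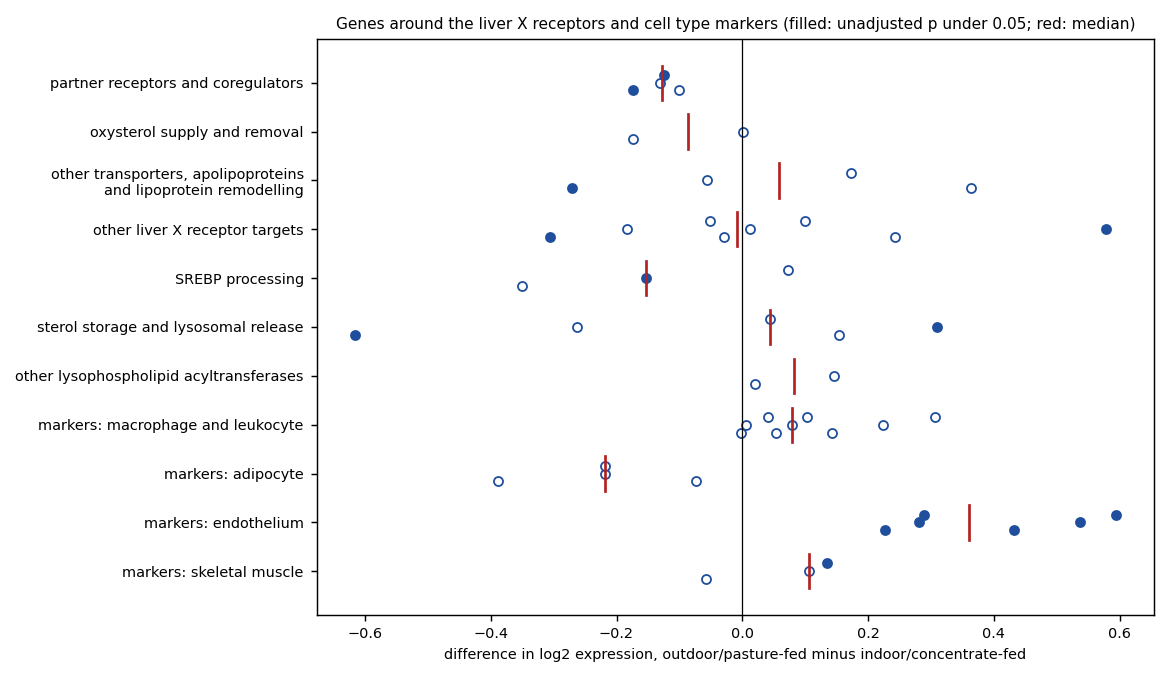
Difference in log2 expression (horizontal axis, outdoor/pasture-fed minus indoor/concentrate-fed) of the varying genes of 7 of the pathway lists and of 4 marker lists (rows), 1 point per gene, filled where the unadjusted limma p was under 0.05, with the list median in red. The pathway lists fall on both sides of 0, and the 6 varying endothelial markers all lie above it.

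Markers of other cells in the muscle were read beside *ABCA1*, which macrophages and endothelium also express. Of 7 endothelial markers, 6 varied and all 6 were higher at pasture at an unadjusted p under 0.05, while *VWF* hardly varied. At this threshold 5.35% of all probe sets were higher, and 9.21% of varying probe sets in the fit to those alone. The cell junction gene *PECAM1* differed by 0.54 (SE 0.11, adjusted p = 0.147 from limma) with no overlap between groups, as 0.217% of all probe sets did in this direction. The cadherin *CDH5* differed by 0.59 (SE 0.15), the receptor *TEK* by 0.43 (SE 0.12) and the claudin *CLDN5* by 0.29 (SE 0.11). The mean of the 7 markers lay between 8.27 and 8.62 at pasture and between 7.86 and 8.29 on concentrate. Within groups it correlated with *ABCA1* at r = 0.07 (permutation p = 0.814) and rho = 0.20 (permutation p = 0.484, n = 14). Endothelial markers thus read higher in the same group as *ABCA1*, and their part in the *ABCA1* difference was not tested.

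All 9 macrophage and leukocyte markers with a probe set varied, 8 higher and 1 lower, and none had an unadjusted p under 0.05. *PTPRC*, the common leukocyte antigen, differed by 0.31 (SE 0.24) and the macrophage gene *AIF1* by 0.22 (SE 0.18). Their mean level overlapped widely, from 6.90 to 7.73 at pasture and from 6.59 to 7.58 on concentrate, and correlated with *ABCA1* within groups at r = 0.38 (permutation p = 0.145) and rho = 0.38 (permutation p = 0.162, n = 14). The 4 adipocyte markers were all lower, none at an unadjusted p under 0.05, with *LEP*, which encodes leptin, at -0.22 (SE 0.16, with indoor replicate 1 far above the rest) and the lipid droplet gene *CIDEC* at -0.39 (SE 0.43). Their mean ran from 6.40 to 7.36 at pasture and from 6.28 to 8.52 on concentrate, and correlated with *ABCA1* at r = -0.19 (permutation p = 0.347, n = 14). Of the 3 muscle markers that varied, the fast myosin *MYH1* differed by 0.14 (SE 0.03, adjusted p = 0.148 from limma). The part of these cells in the *ABCA1* difference was not tested.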

How the data were processed

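The authors quantile normalised the arrays, summarised each probe set with FARMS and deposited log2 values. No further normalisation was applied. Their filter for informative probe sets needs probe-level data and was not repeated. The 112 control probe sets were left out. Linear models with empirical Bayes moderation (limma 3.58.1, R 4.3.3) were fitted to the remaining 24016, with Benjamini-Hochberg adjustment over all of them and a threshold of 0.05. The fit was tested on simulated data. Two-sided exact permutation tests used all 3432 assignments of the arrays to 7 and 7 (Python 3.11.15, scipy 1.17.1, numpy 2.4.6). Relations used deviations from group means, with 100000 shuffles within groups for n = 14 and exact permutation for n = 7, and limma with group and covariate. Figures were drawn with matplotlib 3.10.9.

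The annotation pairs 13292 probe sets with a single symbol and 86 with more than 1. Another 10 took the study's name, and 10628 stayed unnamed. Where a member gene had several varying probe sets, the one with the highest mean stood for it. Each gene of a list was read from 1 probe set, the one with the highest mean, whether it varied or not. A list gene said to hardly vary may thus have another probe set that varied. The genes named are all members, up to 4 per list at an unadjusted p under 0.05 or else the 2 with the smallest p, the 5 most like *ABCA1*, and *SREBF2*. Another gene of the rule is not reported here, nor is its list drawn. The members and lists were chosen with earlier results of these data known. Alternatives were filters by mean and by SD, array weights, robust or trended eBayes, median centring, renewed quantile normalisation, other probe sets, the replicate number as a block and leaving out each array. Further probe sets of *LPCAT3* and *SREBF1*, the unnamed probe set, the omission of 2 arrays and the marker means were chosen after seeing the data. Array number limits the precision of every difference. The p-values of the differences set each against the spread between the sampled animals, taken as independent.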

Additional observations from a re-analysis of the deposited data

Results flagged for a closer look

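In 66 groups of 7 animals, those of 33 named or member probe sets, 5 values stood apart from the other animals of their group by Dixon's criterion, which chance meets in about 1 of 20 groups. No member was among them. *NCOA1* was at 10.27 in outdoor replicate 4, with the nearest animal at 10.49. *LPL* was at 10.20 in indoor replicate 3, with the nearest at 11.04. *LEP* was at 6.72 in indoor replicate 1, with the nearest at 5.96. *SFRP1* was at 8.65 in outdoor replicate 5, with the nearest at 7.52, and at 6.19 in indoor replicate 1, with the nearest at 6.72.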

How the results depend on the processing

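Of 386 combinations of a result and an alternative, 355 kept the direction, the side of the threshold and, for counts, stayed within 1.5 times. *ABCA1* passed with a filter at an SD above 0.1, where fewer probe sets were tested (difference 1.12, adjusted p = 0.0328 from limma), so that 1 member passed there. Without 1 array its difference ran from 0.97 to 1.21, with adjusted p-values from 0.139 to 0.305. Over the other alternatives its adjusted p ran from 0.0328 to 0.318. The *MYLIP* difference had unadjusted limma p-values from 0.0161 to 0.0656 without 1 array, the highest without outdoor replicate 3. The pathway genes higher at an unadjusted p under 0.05 numbered 4 with array weights and from 0 to 4 without 1 array (0 without outdoor replicates 1, 3 or 6, 4 without outdoor replicate 2 or indoor replicate 1, and 1 without outdoor replicate 4 or 7 or indoor replicate 2, 5, 6 or 7). Those lower numbered from 4 to 9, with 4 without outdoor replicate 2, 3, 4 or 5 or indoor replicate 7. The slopes on *ABCA1* of the first *LPCAT3* probe set (0.04) and of the first *SREBF1* probe set (0.01) were near 0 and changed sign. The first was -0.14 with the replicate block and ran from -0.0049 to 0.079 without 1 array. The second was -0.0033 with the replicate block, -0.0045 after renewed quantile normalisation and -0.0014 after median centring, and ran from -0.11 to 0.28 without 1 array. The cause was not tested. All excesses of *ABCA1* over another member kept their direction and an exact permutation p below 0.05 under each alternative run, the highest p being 0.0312 with the replicate block and 0.0245 without 1 array. Each excess still includes the *ABCA1* contrast itself, for which the study picked the gene.

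The replicate numbers of the labels showed no clear pairing of the animals. Same-numbered animals correlated at -0.18 to 0.24 and other pairs at -0.24 to 0.26, and 2 of 7 outdoor animals correlated best with their own number. Such correlations cannot exclude a pairing. With the replicate block the *ABCA1* difference stayed at 1.12 (adjusted p = 0.318 from limma), and besides the 2 slopes above no result changed its direction or its side of an adjusted p of 0.05. At an unadjusted p under 0.05, the block left 3 in place of 4 higher members, since the p of *MYLIP* went from 0.0311 to 0.0601, and the pathway genes numbered 3 higher and 5 lower in place of 2 and 7.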
